A study of Mus musculus with 8 samples.

Results

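The mouse genes described here are 35 transcripts known to be enriched in astrocytes, taken by name from the 22609 rows of a gene expression table of the medial prefrontal cortex. All 35 were found under the listed symbol, and Ppap2b is the older symbol of Plpp3. The tissue was the anterior cingulate part of that cortex from both hemispheres. The mice were of strain B6.SJL and 3 months old, with no other genotype named, and were killed 1 h after behaviour. Mice of the contextual fear conditioning group explored a chamber for 3 min, were given 2 foot shocks (0.8 mA, 2 s each, 30 s apart) and were left there for a further 15 s. Context control mice went through the same exposure without shock, so both groups share the exposure to the chamber, and neither is a home-cage group. Each group held 4 biological replicates. The labels do not say whether a replicate was 1 mouse or a pool. The series concerns early changes of the neocortex when a memory is formed, and the comparison asks what the shock added to the exposure in these genes.

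Astrocytes are the main homeostatic glia of the cortex. Their fine processes enclose synapses, where they take up glutamate and potassium, and their endfeet sheathe blood vessels with water channels. They are joined into a network by gap junctions and supply neurons with glutamine and metabolic substrates. They respond to neuronal activity, noradrenaline and glucocorticoids, and in injury they raise cytoskeletal and immune genes, a state known as reactive. The list holds genes of each of these functions and is ordered by role below. The RNA came from whole tissue, so fewer astrocytes and less RNA per astrocyte cannot be told apart.

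Each value is a number of reads per gene divided by 1 factor for the library, with no correction for gene length, and means are given with SD over n = 4 samples per group. Recovered reads ranged from 1992452 to 3565356 per sample. All 35 genes passed the filter on low values. The defining astrocyte markers Gja1, Gjb6, Aqp4, Gfap, Aldh1l1, Slc1a2 and Slc1a3 had at least 85 reads each in every sample. Except for Agt, every one rested on at least 14 reads in each sample. Libraries differed in base composition. Across 6480 genes with a mean of 100 or more, the deviation of a gene from its mean over the 8 samples correlated with the G+C content of its transcript by a Spearman rho of 0.68 and 0.72 in fear conditioning replicates 1 and 2, and of 0.42 and 0.64 in the controls of those numbers. In replicates 3 and 4 the sign was opposite, with -0.62 and -0.25 in controls and -0.38 and -0.79 after conditioning. These correlations run across genes of 1 library and carry no test. The labels give no batch, and the cause of this split between replicate numbers was not tested.

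After fear conditioning, the mean log2 value of each of the 35 astrocyte genes lay below that of the context controls, and none passed the test. The median log2 difference was -0.25, where the median over the 14704 tested genes was 0.0095 and 48.2% of them lay lower. Differences ran from -2.38 for Agt to -0.0059 for Kcnj10. With Benjamini-Hochberg adjustment in limma, 0 of 35 members and 0 of 14704 genes (percent called 0) were below 0.05, and the smallest adjusted p was 0.9998. At an unadjusted p under 0.05, 4 members lay lower (Agt, Mlc1, Gjb6 and Gja1), with a background of 1.52% of tested genes lower and 1.18% higher. The other 31 had 95% confidence intervals that include 0. The interval reached 0.444 to either side in the median member, and from 0.268 to 1.47 over the 35. The difference that a single gene needed to stand clear of 0 thus depended on its own interval. The members were chosen with earlier results of these data known, so their shared sign is given as a description.

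**Figure D1:**
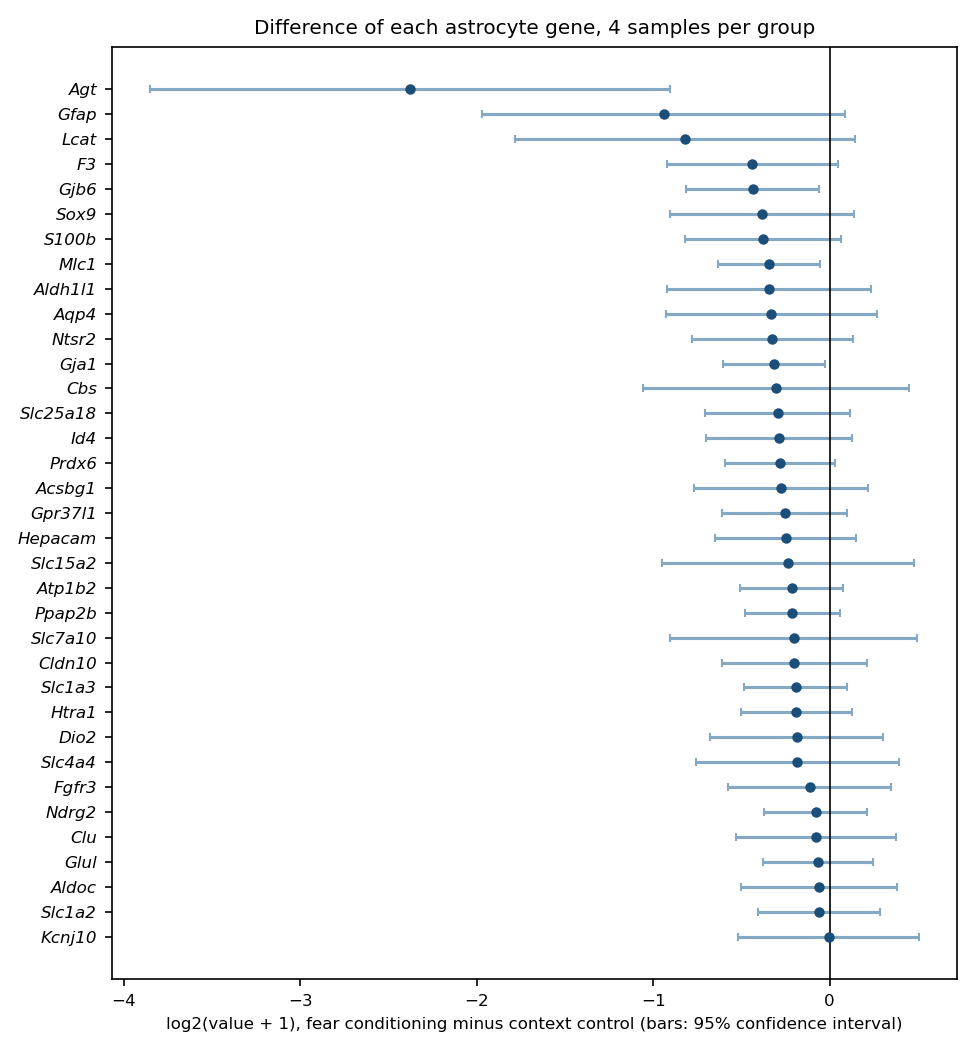
Difference between the groups for each of the 35 astrocyte genes on the log2(value + 1) scale (points, fear conditioning minus context control, with 95% confidence intervals from limma), ordered by size. All points lie below 0, and the intervals of Agt, Gjb6, Mlc1 and Gja1 do not reach it.

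Both gap junction genes and Mlc1 had lower means after conditioning, and Gja1 and Mlc1 were the 2 of 35 members whose groups did not overlap. Gja1 encodes the main connexin of astrocytes and Gjb6 the other astrocyte connexin, and together they form the channels that couple the astrocyte network. Gja1 measured 1085, 1163, 1433 and 1276 in the 4 controls, by replicate number, and 909, 1028, 962 and 1067 in the 4 conditioned samples. Every conditioned sample was below every control for Gja1, with a log2 difference of -0.32 (95% confidence interval -0.61 to -0.026). Over all tested genes, 0.939% had every conditioned sample below every control and 0.979% had the opposite. Gjb6 measured 281, 261, 369 and 351 in the 4 controls, by replicate number, and 221, 231, 198 and 279 in the 4 conditioned samples. For Gjb6 the groups overlapped through fear conditioning replicate 4, which lay above the lowest control, and the difference was -0.44 (-0.81 to -0.057). Mlc1 encodes a membrane protein of perivascular astrocyte processes that takes part in volume regulation. Mlc1 measured 880.3, 890.4, 980.1 and 1001 in the 4 controls, by replicate number, and 765, 833, 728 and 636 in the 4 conditioned samples. Mlc1 was the other member with complete separation, with a difference of -0.34 (-0.63 to -0.056). Each of these 3 genes lay lower whichever of the 8 samples was left out, with log2 differences of -0.24 to -0.38 for Gja1, -0.35 to -0.53 for Gjb6 and -0.27 to -0.40 for Mlc1.

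The stretches just before the start of these 3 genes and of Agt, the member with the largest difference, are shown because they are the 4 members with an unadjusted p under 0.05. The sequences are from RefSeq on GRCm38.p6 and run 5′ to 3′ on the gene's strand. Gja1 is at chr10:56377050-56377299 (plus strand), Gjb6 at chr14:57133612-57133861 (minus strand), Mlc1 at chr15:88978554-88978803 (minus strand) and Agt at chr8:124569707-124569956 (minus strand). Capitals mark the E-box CANNTG, the nuclear factor I core TTGGC or its reverse complement GCCAA, and the STAT motif TTCNNNGAA.
Gja1: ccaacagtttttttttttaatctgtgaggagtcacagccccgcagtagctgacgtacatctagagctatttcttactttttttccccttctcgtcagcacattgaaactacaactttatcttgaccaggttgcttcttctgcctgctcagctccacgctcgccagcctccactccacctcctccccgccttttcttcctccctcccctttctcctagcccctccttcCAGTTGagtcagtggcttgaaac
Gjb6: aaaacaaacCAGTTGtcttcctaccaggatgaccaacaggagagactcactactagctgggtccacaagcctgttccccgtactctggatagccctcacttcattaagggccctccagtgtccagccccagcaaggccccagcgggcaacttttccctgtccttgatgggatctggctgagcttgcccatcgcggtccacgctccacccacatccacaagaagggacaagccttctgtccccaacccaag
Mlc1: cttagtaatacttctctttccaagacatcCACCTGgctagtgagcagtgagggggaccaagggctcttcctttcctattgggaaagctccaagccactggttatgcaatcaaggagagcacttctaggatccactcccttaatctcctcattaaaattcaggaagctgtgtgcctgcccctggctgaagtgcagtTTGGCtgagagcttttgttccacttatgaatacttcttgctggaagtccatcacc
Agt: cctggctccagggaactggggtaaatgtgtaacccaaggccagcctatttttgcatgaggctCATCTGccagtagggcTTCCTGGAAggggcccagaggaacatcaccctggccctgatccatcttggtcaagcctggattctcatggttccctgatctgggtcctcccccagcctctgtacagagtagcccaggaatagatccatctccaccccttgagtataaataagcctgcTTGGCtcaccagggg
Each of the 4 windows holds 1 E-box. Those of Mlc1 and Agt also hold 1 nuclear factor I core each, and that of Agt holds 1 STAT motif.

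Promoter windows of this length were found for 30 of the 35 members, 36 windows in all because some genes have several starts. The members without an entry were Sox9, Clu, Prdx6, Atp1b2 and Aqp4. The TTGGC core, searched on both strands like each motif here, was in 21 of 36 (58.3%), against 41.5% of all 32851 windows in the table. TTCNNNGAA was in 5 (13.9% against 7.02%), CANNTG in 22 (61.1% against 66.2%) and the SOX motifs ACAATG or ACAAAG in 3 (8.33% against 25.2%). The full nuclear factor I palindrome, which contains that core, and the glucocorticoid receptor palindrome were in none of the 36, and in 12 and 3 of all windows. These matches describe letters only. The windows of the members had a median G+C content of 55.6%, against 52.4% over all windows.

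**Figure D2:**
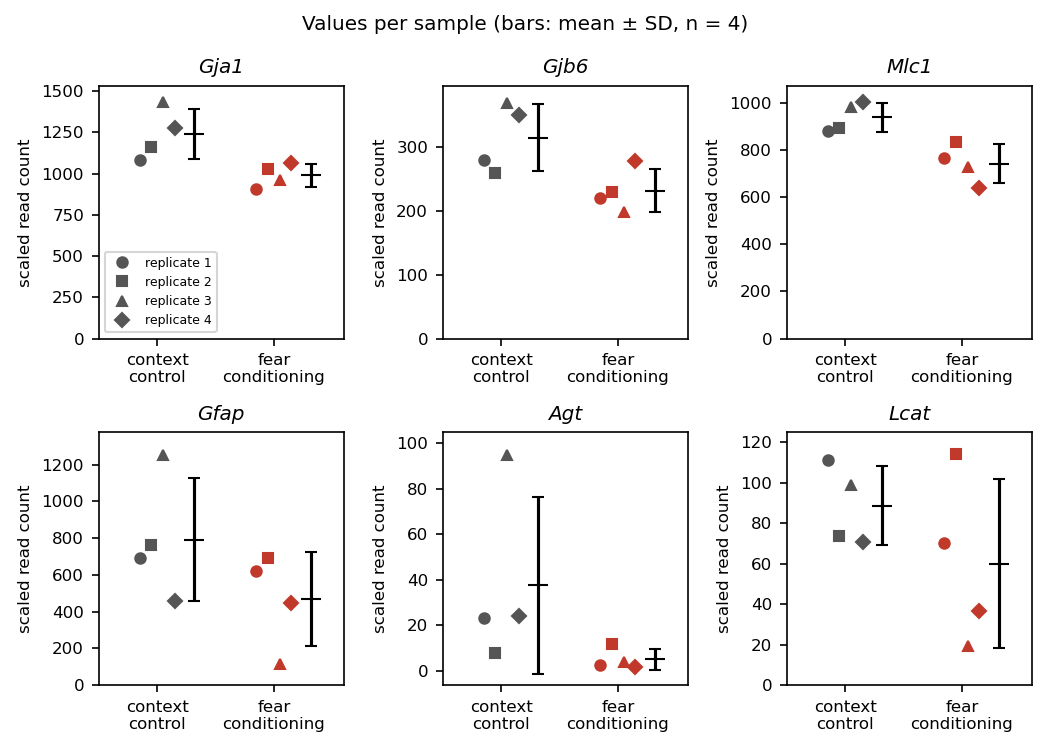
Scaled read counts of 6 astrocyte genes in each sample (linear axes, grey for context control, red for fear conditioning, symbols for the replicate number, bars for mean ± SD with n = 4). Gja1 and Mlc1 do not overlap between the groups, whereas Gjb6, Gfap, Agt and Lcat do.

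The other genes of water and ion balance did not separate the groups. Aqp4 encodes the water channel of astrocyte endfeet. Aqp4 measured 852, 556, 1529 and 866 in the 4 controls, by replicate number, and 577, 718, 577 and 1049.6 in the 4 conditioned samples. The groups overlapped widely for Aqp4. Context control replicate 3 stood highest and fear conditioning replicate 4 next, and the log2 difference was -0.33 (-0.93 to 0.27). It was -0.070 without context control replicate 3, -0.56 without context control replicate 2 and -0.52 without fear conditioning replicate 4. Kcnj10, the inwardly rectifying channel that clears potassium, and Slc4a4, a sodium bicarbonate cotransporter, also had context control replicate 3 and fear conditioning replicate 4 as their highest samples. Kcnj10 was 1202 ± 379.8 and 1195 ± 346 in controls and conditioned samples, and Slc4a4 was 977 ± 379 and 849.6 ± 287 (SD, n = 4 each). Without context control replicate 3 the log2 difference was 0.19 for Kcnj10 and 0.054 for Slc4a4. Kcnj10 was also higher after conditioning without fear conditioning replicate 1 (0.15) or 2 (0.072). Atp1b2, a glial subunit of the sodium pump, was 1597 ± 202 and 1372 ± 101 and Hepacam, the adhesion protein that partners Mlc1, was 406 ± 84.8 and 341 ± 56.4.

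None of the 7 genes of glutamate, amino acid and peptide handling separated the groups. Slc1a2 encodes the main glutamate transporter of the forebrain. Slc1a2 measured 8279, 9813, 11866 and 12039.8 in the 4 controls, by replicate number, and 9036, 8866, 11419 and 10766 in the 4 conditioned samples. All conditioned samples lay within the range of the controls, and the difference of -0.059 (-0.40 to 0.29) changed sign without context control replicate 3 (0.0051) or 4 (0.012). The other astrocyte glutamate transporter, Slc1a3, was 2752 ± 398 and 2389.8 ± 48.8, and glutamine synthetase, Glul, was 2654 ± 398 and 2523 ± 214 in controls and conditioned samples. The log2 difference of Glul was 0.016 without context control replicate 4. Slc1a3 was nearly level over the 4 conditioned samples, from 2342 to 2457, and spread from 2294 to 3225 over the controls. Slc7a10, which carries D-serine and other small amino acids, was 90.7 ± 21.3 and 83.5 ± 38.2. The mitochondrial glutamate carrier gene Slc25a18 was 175 ± 10.6 and 144 ± 30.8, the peptide transporter gene Slc15a2 330.5 ± 163 and 273 ± 108 and Cbs, an enzyme that makes cystathionine from homocysteine, 62.5 ± 20.9 and 52.3 ± 22.7. Slc15a2 changed sign without context control replicate 3 (0.055) and Slc7a10 without fear conditioning replicate 4 (0.070).

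Gfap, the intermediate filament gene that rises in reactive astrocytes and is strongest in white matter and below the pia, varied widely. Gfap measured 693, 766, 1253 and 459 in the 4 controls, by replicate number, and 621, 694, 116 and 444 in the 4 conditioned samples. Its ends were context control replicate 3 at the top and fear conditioning replicate 3 at the bottom, and the other 6 samples of both groups overlapped between 444 and 766. The difference was -0.94 (-1.97 to 0.088), and -0.37 without fear conditioning replicate 3. In the same context control replicate 3, oligodendrocyte transcripts summed to 11842, against 2760.1 to 5211 in the other 7 samples, and their part in the Gfap value was not tested. S100b, encoding a calcium-binding protein, was 466 ± 146 and 349 ± 49.0, with the same control replicate highest at 679.6.

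In 4 of the 6 metabolic and redox genes (Aldh1l1, Acsbg1, Prdx6 and Ppap2b), fear conditioning replicates 3 and 4 were the lowest samples. Aldh1l1 encodes a folate enzyme widely used as a general astrocyte marker. Aldh1l1 measured 268, 274, 213 and 203 in the 4 controls, by replicate number, and 219.6, 313, 148 and 119.9 in the 4 conditioned samples. Its highest and lowest samples were both in the conditioned group, and the difference was -0.34 (-0.92 to 0.23). It was -0.13 without fear conditioning replicate 4 and -0.59 without fear conditioning replicate 2. Acsbg1, an acyl-CoA synthetase for long fatty acids, had the same order at the ends and was 366 ± 45.2 and 315 ± 112. Aldoc, the brain aldolase, was 1345 ± 169.6 and 1328 ± 382, and read 1619.9 and 1643 in fear conditioning replicates 1 and 2 but 839 in replicate 4. Without fear conditioning replicate 4 its difference was 0.14. The peroxiredoxin gene Prdx6 was 790.3 ± 84.9 and 651 ± 80.4, and reads shared with near-identical gene copies could not be separated. The lipid phosphatase gene Ppap2b was 1078 ± 40.7 and 933 ± 79.6, and Dio2, which activates thyroid hormone, was 871 ± 250.0 and 760.1 ± 208, with context control replicate 3 and fear conditioning replicate 4 the highest.

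Among the 4 receptor and signalling genes, Fgfr3, Ntsr2 and Gpr37l1 were also lowest in fear conditioning replicates 3 and 4. Fgfr3 encodes a fibroblast growth factor receptor. Fgfr3 measured 355, 308, 278 and 246 in the 4 controls, by replicate number, and 345, 350.2, 236 and 191 in the 4 conditioned samples. Fear conditioning replicates 1 and 2 stood just under the highest control, and the difference of -0.11 (-0.58 to 0.35) was 0.055 without fear conditioning replicate 4. The neurotensin receptor gene Ntsr2 was 256 ± 27.4 and 210.1 ± 61.0 and the receptor gene Gpr37l1 558 ± 17.0 and 475 ± 102. Gpr37l1 was tight in the controls, from 539.8 to 581, and spread from 379 to 593 after conditioning. Ndrg2, a stress-responsive astrocyte gene, was 1716 ± 212 and 1618 ± 127.

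Genes of secreted and junction proteins ranged from Agt, with the largest difference of the 35, to Clu, with one of the smallest. Clu encodes the chaperone clusterin. Clu measured 1389, 1817, 1291 and 1593 in the 4 controls, by replicate number, and 1856, 1823, 1313 and 947 in the 4 conditioned samples. The conditioned group held both the highest sample and the lowest, and the difference of -0.076 (-0.53 to 0.38) was 0.12 without fear conditioning replicate 4 and 0.013 without context control replicate 2. Agt encodes angiotensinogen, the precursor of the angiotensin peptides, which astrocytes make in the brain. Agt measured 23.3, 8.06, 94.8 and 24.1 in the 4 controls, by replicate number, and 2.76, 11.9, 4.1 and 1.92 in the 4 conditioned samples. Agt was near the floor of detection, with as few as 2 reads in a sample, and context control replicate 3 stood far above the other samples. Only fear conditioning replicate 2 exceeded a control, namely context control replicate 2. The difference was -2.38 (-3.85 to -0.90), and -1.77 without context control replicate 3.

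Lcat, the enzyme that esterifies cholesterol on lipoproteins, was 88.7 ± 19.6 and 60.02 ± 41.9. It read 19.1 and 36.5 in fear conditioning replicates 3 and 4, below all other samples, while replicate 2 was the highest of the 8 at 114. Its log2 difference of -0.82 was -0.38 without fear conditioning replicate 3. F3, encoding tissue factor, the starter of coagulation, was 192 ± 41.2 and 143 ± 39.8, with 3 conditioned samples below all controls and replicate 4 at 201 among them. The serine protease gene Htra1 was 575 ± 42.2 and 508 ± 68.4 and the claudin gene Cldn10 192 ± 39.3 and 165 ± 19.4. Among the transcription factors, Sox9 specifies and maintains astrocytes. Sox9 measured 135, 105, 158 and 88.5 in the 4 controls, by replicate number, and 98.0, 96.8, 65.6 and 108 in the 4 conditioned samples. Sox9 overlapped between groups, with a difference of -0.38 (-0.91 to 0.14) that was -0.23 without fear conditioning replicate 3 and -0.25 without context control replicate 3. The inhibitor of DNA binding Id4 was 274 ± 47.4 and 225 ± 47.0.

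Levels can be compared between genes only per length, here as the control mean per kb of the longest annotated transcript. On that scale the most abundant members were Glul (951 ± 143), Slc1a2 (906 ± 155), Clu (841 ± 129) and Ndrg2 (816 ± 101), whose ranges of mean ± SD overlapped. Slc1a3 (621 ± 89.8) and Aldoc (483 ± 60.9) came next. The lowest were Cbs (10.03 ± 3.36), Agt (19.9 ± 20.5) and Sox9 (29.4 ± 7.51), and the common markers Gfap (299 ± 126), Aqp4 (188 ± 81.3) and Aldh1l1 (57.4 ± 8.83) lay between. This order depends on the transcript length used, which was 6226 bases for Cbs, and a shorter transcript would give a higher level. Summed without length correction, the 35 genes made up 0.969% to 1.32% of a library's total, with the maximum in context control replicate 3. In controls these shares were 1.06, 1.07, 1.32 and 1.18% in order of number, and after conditioning 0.986, 1.04, 0.969 and 1.01%. Every conditioned library was below every control in this share. The totals it was divided by also differed, from 2.96e+06 in context control replicate 1 to 3.30e+06 in fear conditioning replicate 3. The share was not computed for other sets of genes, so the separation is given as a description. The sums themselves, before division by the library's total, overlapped. They were 31481 to 40885 in controls and 31413 to 33048 after conditioning. Slc1a2 had the largest value in these sums.

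The members also varied between replicates of a group. Context control replicate 3 was the highest of the 8 samples for 18 of the 35 genes and above the gene mean for 31. Fear conditioning replicate 4 was the lowest for 14 genes and replicate 3 for 11. The median deviation of the members from their 8-sample mean was 0.083, 0.049, 0.29 and 0.096 in the controls, by number. It was -0.080, 0.047, -0.27 and -0.19 in fear conditioning replicates 1 to 4. Fear conditioning replicate 2 thus stood at the level of the lowest control, and the other 3 conditioned libraries below all controls.

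Set against the control of the same number, 28 of the 35 genes were lower in conditioned replicate 1 (47.8% of tested genes), with a median log2 difference of -0.20. In replicate 2, 13 were lower (47.5%), with a median of 0.087. In replicate 3, 33 were lower (48.2%), with a median of -0.53, and in replicate 4, 26 (49.9%), with a median of -0.37. Within replicates 1 and 2 the members' median difference was -0.047, with 26 of 35 lower. Within replicates 3 and 4 it was -0.45, with 34 of 35 lower and Kcnj10 the exception at 0.12. Most of the pooled difference was therefore measured in the libraries numbered 3 and 4, and the difference between these sets was not tested here.

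**Figure D3:**
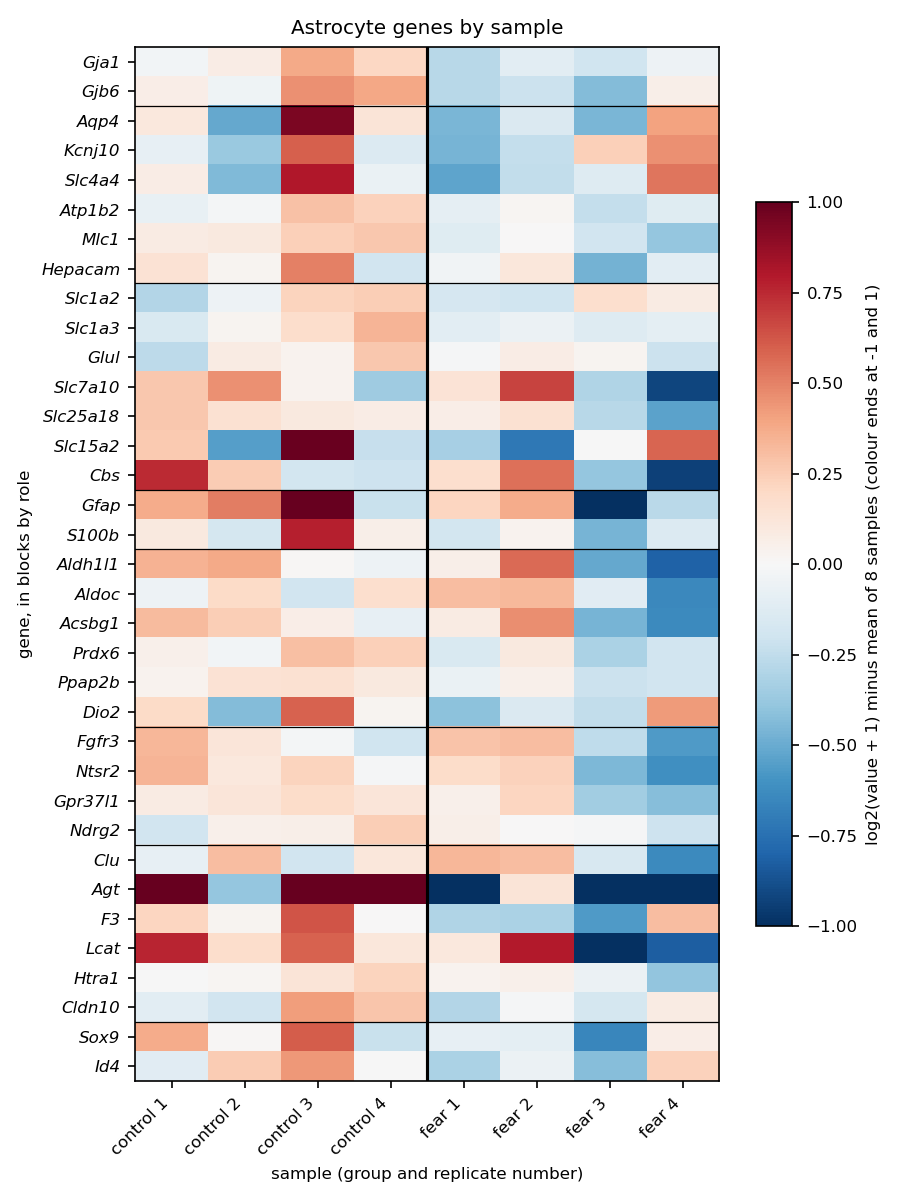
Log2(value + 1) of each astrocyte gene (rows, in blocks by role) in each sample (columns) minus the gene's mean over the 8 samples, with colours ending at -1 and 1. Context control replicate 3 is the highest sample for 18 genes, and in fear conditioning replicate 4 some genes stand high (Aqp4, Kcnj10, Slc4a4, Slc15a2, Dio2) while most stand low.

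Within a library, the members' deviations varied with the base composition of their transcripts. G+C content ran from 41.4% in the transcript of Aqp4 to 57.0% in that of Slc7a10. Across the 35 genes the deviation correlated with G+C content by a Spearman rho of 0.76 in fear conditioning replicate 2 and -0.78 in replicate 4, and the sign in each library matched that over all genes. The 10 members with the lowest G+C content (Aqp4, Gja1, Id4, Dio2, Slc15a2, Slc1a2, Slc1a3, Slc4a4, F3 and S100b) had a median deviation of -0.31, -0.14, -0.22 and 0.27 in fear conditioning replicates 1 to 4. The 10 with the highest (Aldh1l1, Acsbg1, Gfap, Lcat, Clu, Htra1, Agt, Fgfr3, Gpr37l1 and Slc7a10) had 0.096, 0.34, -0.41 and -0.63. In context controls the same medians were 0.084, -0.11, 0.61 and 0.045 for the low class and 0.32, 0.21, 0.098 and 0.031 for the high class. Only fear conditioning replicate 3 was below 0 in both classes, and only context control replicates 1, 3 and 4 were above 0 in both. The pooled difference of a member had little relation to its G+C content (rho = -0.043 over 35 genes). Within replicates 1 and 2 that rho was 0.46 and within replicates 3 and 4 it was -0.37.

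When each library was corrected for G+C content, a step chosen after seeing the data, all 35 members still lay lower, with a median of -0.29 (53.1% of tested genes lay lower). Before correction the median was -0.25 and 48.2% of tested genes lay lower. The step also moves the level of a library as a whole. Aqp4 (-0.33 to -0.35) and Slc7a10 (-0.20 to -0.24), at the ends of the members' G+C range, both moved down. The number at an unadjusted p under 0.05 went from 4 to 14 of 35, with a background of 3.22% of tested genes lower. Mlc1 (-0.37), Agt (-2.41), Gjb6 (-0.46) and Gja1 (-0.34) had the smallest p, and no member passed after adjustment (limma adjusted p = 0.909 at the lowest). The corrected median deviations were 0.088, 0.023, 0.43 and 0.079 in the controls, by number. They were -0.16, 0.0074, -0.25 and -0.14 in fear conditioning replicates 1 to 4. No conditioned library was above a control, which already held before correction. There, fear conditioning replicate 2 was at 0.0471 and context control replicate 2 at 0.0488. Context control replicate 3 still stood apart at the top.

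**Figure D4:**
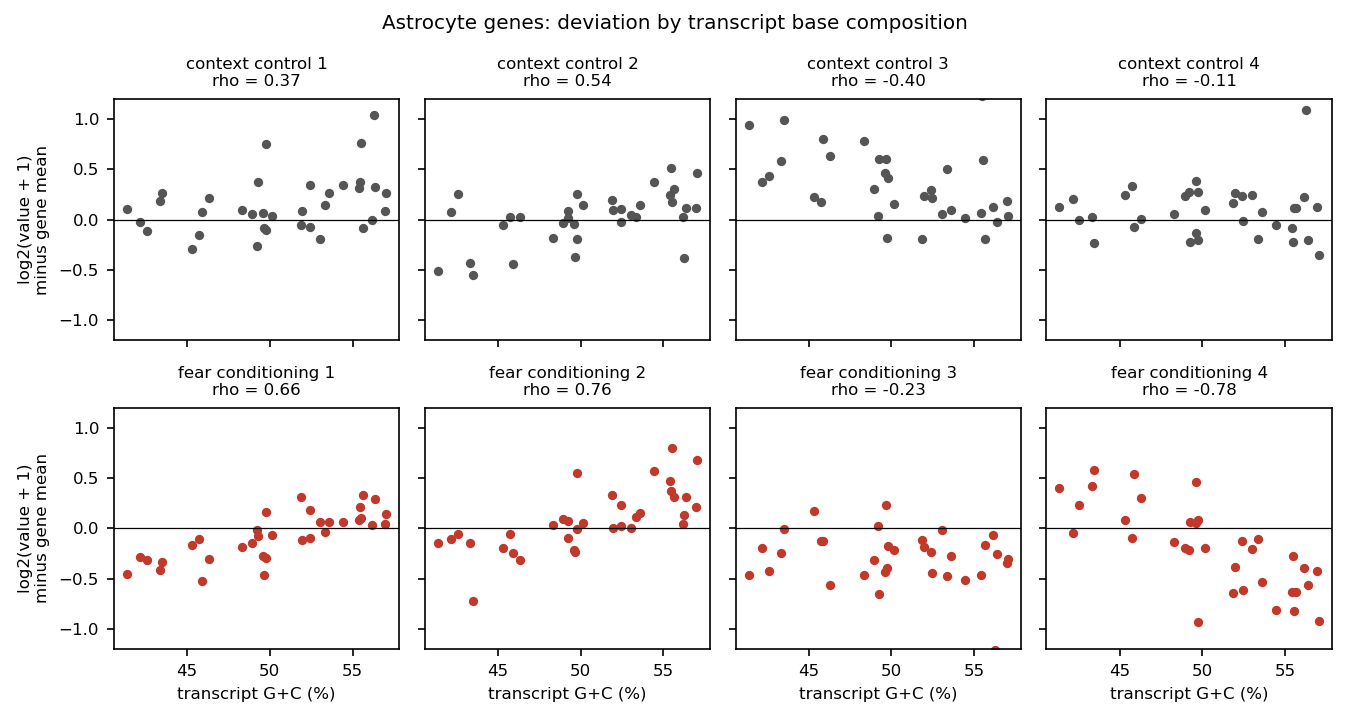
Log2(value + 1) of each of the 35 astrocyte genes minus its 8-sample mean, against the G+C content of its transcript in percent, 1 panel per library, with the Spearman rho across genes in each title (7 points lie beyond the panels). The rho is positive in replicates 1 and 2 of both groups and negative in replicates 3 and 4 of both groups. It is weakest in context control replicate 4 (-0.11).

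A wider set of 40 astrocyte-enriched genes that are not among the 35 had the same sign. Of these, 34 lay lower and 6 higher, with a median of -0.20, and none passed. The urea transporter gene Slc14a1 was 114 ± 24.3 and 77.0 ± 14.7, the lipase gene Pla2g7 769.8 ± 111 and 613 ± 66.0 and the phagocytic receptor gene Megf10 165 ± 84.2 and 104 ± 16.7 in controls and conditioned samples (SD, n = 4 each). These 3 had the smallest p of the set, and 2 of 40 lay lower at an unadjusted limma p under 0.05, where 1.52% of tested genes did. Within replicates 1 and 2 the median of the set was -0.013 and within replicates 3 and 4 -0.32.

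Genes known from reactive astrocytes, of which 20 of 22 passed the filter on low values, were also mostly lower after conditioning, 17 against 3, with a median of -0.33 and none past the threshold. Gbp2 measured 24.1, 13.4, 65.5 and 46.7 in the 4 controls, by replicate number, and 8.29, 7.96, 4.1 and 17.3 in the 4 conditioned samples. Gbp2, an interferon-induced guanylate-binding protein gene, overlapped between the groups only through fear conditioning replicate 4 and context control replicate 2, and its log2 difference was -1.80. Vim, the filament gene expressed with Gfap, was 207 ± 72.0 and 128 ± 56.1 and Tm4sf1, also made by vascular cells, was 87.3 ± 34.9 and 47.1 ± 25.6. Several genes of this set are also made by vascular or immune cells. The summed value of the set was 789.7 to 1542 in controls and 562 to 840.4 after conditioning.

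Markers of the other non-neuronal cell types also lay mostly lower after conditioning, and neuronal markers mostly higher. Neuronal markers summed to 22483 to 28531 in controls and 21955 to 30439 after conditioning. Of 17 tested, 14 lay higher and 3 lower, with a median of 0.10. Syt1, a calcium sensor of synaptic vesicles, was 3615 ± 609.5 and 3966 ± 312 and the heavy neurofilament gene Nefh 145 ± 47.8 and 173 ± 16.0. Endothelial and mural markers were lower in 12 of 12 (median -0.42), oligodendrocyte markers in 12 of 12 (-0.49), oligodendrocyte precursor markers in 8 of 8 (-0.37), microglial markers in 11 of 12 (-0.28) and meningeal fibroblast markers in 9 of 9 (-0.56). The meningeal median turned from 0.17 within replicates 1 and 2 to -1.50 within replicates 3 and 4, and the neuronal median was 0.23 and -0.010. The endothelial and mural medians were -0.16 and -0.57, the oligodendrocyte medians -0.66 and -0.42, the precursor medians -0.074 and -0.51 and the microglial medians -0.065 and -0.47. None of these markers passed the threshold. Neu4, a sialidase gene of oligodendrocyte precursors with the smallest p of its list, was 40.8 ± 4.97 and 21.1 ± 4.39. Of the 8 precursor markers, only Neu4 (1 gene) had no overlap. Over all tested genes, 0.939% had every conditioned sample below every control. The lineage factor gene Olig2 was 83.1 ± 21.1 and 52.5 ± 18.6. The endothelial receptor gene Tek was 137 ± 34.9 and 84.9 ± 30.8 and the adhesion gene Pecam1 168 ± 11.6 and 113 ± 41.9.

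The order of the libraries was not the same in all of these lists. Context control replicate 3 was highest in every cell type list except the neuronal list, where its median deviation was -0.18. Its median deviation was 1.70 in the oligodendrocyte list, 0.52 in the precursor list and 0.35 in the microglial list. It was 0.42 in the endothelial and mural list and 0.89 in the meningeal list. Fear conditioning replicate 3 was lowest in the astrocyte (-0.27), endothelial and mural (-0.53), microglial (-0.25) and meningeal (-1.45) lists. Fear conditioning replicate 4, which was low for astrocyte genes (-0.19), was above its mean for oligodendrocyte (0.36) and meningeal (0.37) genes. Neuronal markers in that library were also low (-0.24). Ependymal and choroid plexus markers summed to 27.4 to 87.7 in controls and 23.5 to 62.3 after conditioning. These are low sums, and the ion channel gene Kcnj13 was listed at 0 in 3 conditioned samples. The part of these other cell types in the astrocyte difference was not tested.

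**Figure D5:**
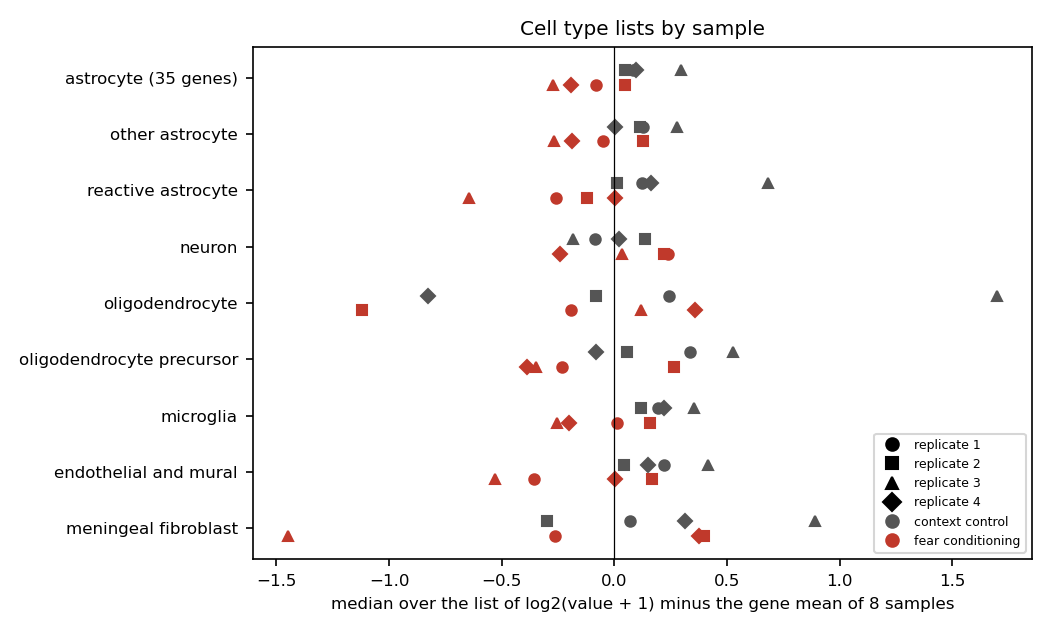
Median over each cell type list of log2(value + 1) minus the gene's 8-sample mean, 1 symbol per sample (grey for context control, red for fear conditioning, symbol shape for the replicate number). In the astrocyte list 3 conditioned samples lie below all controls and fear conditioning replicate 2 lies beside the lowest control. Context control replicate 3 is the highest sample in every list shown except the neuronal list.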

How the data were processed

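Total RNA of 8 samples was sequenced, and all 8 columns of the deposited table were used. The table is named FPKM, but its deposited values are a signal without length correction. In each column 100% of values above 0 are whole multiples of 1 step (within 0.01 of a read), so the authors' values are gene read counts divided by a factor per sample. The submitters' processing notes name TopHat and HTSeq with no version, and hg19, a human build, for these mouse samples. For that reason no coordinates were taken from the files. No label or header gives the scaling factor, the annotation or whether counting used strand. Reads of a gene and of one overlapping or antisense to it could therefore not be told apart.

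The 14704 genes averaging 1 or more over the samples were compared on log2(value + 1), which understates low genes, in limma 3.58.1 under R 4.3.3 (variance trend, two-sided, Benjamini-Hochberg over all tested genes, threshold 0.05). edgeR 4.0.16 and DESeq2 1.42.0 on recovered reads, quantile normalization, a pseudocount of 0.1, no filter, array weights, a replicate block and leaving out samples were alternatives. The fits in limma and edgeR were tested on simulated data. Transcript length and G+C content came from the longest GENCODE vM21 transcript, found for all 35 members and 98.8% of tested genes. G+C correction subtracted a lowess curve (span 0.3) per library.

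The titles number the replicates 1 to 4 in each group. The deviations of same-numbered samples from their group means correlated across 6532 genes at 0.56, 0.60, 0.32 and 0.19 for numbers 1 to 4. However, control 2 with conditioned 1 (0.73) and control 3 with conditioned 4 (0.80) were closer than any of these. Conditioned 3 was also closer to control 4 (0.41) than to control 3. Correlations were positive within numbers 1 and 2 and within numbers 3 and 4, and negative between these sets. What a number shares is not given in the labels. Members and lists were chosen with earlier results of these data known. All 35 members are named, with values per sample for the first of each role and for those with complete separation or an unadjusted p under 0.05. Up to 3 genes of each other list were taken by smallest p.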

Additional observations from a re-analysis of the deposited data

How the results depend on the processing

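The members' median stayed between -0.25 and -0.30 with all 35 lower (34 in edgeR, whose filter dropped Agt, and 34 under quantile normalization, where Slc1a2 was at 0) under edgeR, DESeq2, quantile normalization, a pseudocount of 0.1, no filter, the replicate block and G+C correction with or without the replicate block, and it was -0.23 with 30 lower under array weights. There Aldoc (0.12), Clu (0.11), Glul (0.060), Ndrg2 (0.040) and Slc1a2 (0.0035) lay higher, and the cause was not tested. With each sample left out in turn, 31 to 35 members were lower, the median ran from -0.33 to -0.19, and the genes whose sign turned were Aldoc (-0.18 to 0.14), Clu (-0.20 to 0.12), Fgfr3 (-0.24 to 0.055), Glul (-0.16 to 0.016), Kcnj10 (-0.16 to 0.19), Slc15a2 (-0.47 to 0.055), Slc1a2 (-0.17 to 0.012), Slc4a4 (-0.39 to 0.054) and Slc7a10 (-0.46 to 0.070). In replicates 1 and 2 only, the members' median was -0.047, and in replicates 3 and 4 only it was -0.45. The count of genes past the threshold over the whole table was 0 to 1 with a sample left out (1 without fear conditioning replicate 4, and no member), 8 in replicates 1 and 2 only (no member) and 0 elsewhere. At an unadjusted p under 0.05 the whole-table count was 397 in limma, 255 in edgeR, 338 in DESeq2, 823 with array weights and 594 with the replicate block, which changed no call. Depth limits Agt most, with as few as 2 reads in a sample.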

Other observations

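Genes of glycogen, lactate and cholesterol metabolism, functions in which astrocytes take a large part, were split in direction over the 8 samples. Of 22 tested, 10 lay lower and 12 higher, with a median log2 difference of 0.043 (0.19 within replicates 1 and 2 and -0.11 within replicates 3 and 4), and none passed the threshold in limma or reached an unadjusted p under 0.05. Sqle, squalene epoxidase, an enzyme of cholesterol synthesis, was 478 ± 80.8 and 570.4 ± 125 in controls and conditioned samples (SD, n = 4 each). Sqle was among the 3 genes with the smallest p of the list. Many members of the list are also expressed by neurons.

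No sample of a member gene stood out from its group of 4 by Dixon's test, in 0 of 70 groups of values, although chance alone would mark about 1 in 20. The wide values of Gfap and Agt in context control replicate 3 therefore did not pass that test.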
